A study of Mus musculus with 8 samples.

Results

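The 10 genes described here are best known from blood vessel endothelium, and they were measured in haematopoietic stem cells (HSCs), the scarce marrow cells that give rise to every blood lineage. The set holds Cdh5, Ptprb, Sox17, Sox18, Kdr, Flt1, Tie1, Emcn, Eng and Plvap, taken by symbol from the per-library tables, so 10 of the 22050 genes with an mRNA model. The 8 libraries came from bone marrow of C57BL/6 mice, an inbred strain with no engineered allele or treatment named in the labels. Of these, 4 came from neonates on postnatal day 5 (P5) and 4 from animals aged 4 weeks. All were sorted as CD150+ CD48- EPCR+ Lineage- cells, with 100 cells named for each library. The labels do not say whether the libraries within an age are separate animals, so p-values measure the spread between these libraries, which may be technical. Because each library is bulk RNA, fewer cells carrying a transcript and less transcript per cell cannot be told apart.

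HSCs of the embryo arise from haemogenic endothelium, a vessel lining whose cells carry VE-cadherin and give rise to blood, and HSCs share several surface proteins with endothelial cells. Vascular endothelial growth factor (VEGF) acts through the receptor tyrosine kinases encoded by Kdr and Flt1, while angiopoietins act through TEK, which pairs with the related receptor TIE1 and is dephosphorylated by VE-PTP, the product of Ptprb. VE-cadherin, encoded by Cdh5, holds endothelial cells together at adherens junctions. Endoglin, encoded by Eng, is a co-receptor for BMP9 and TGF-beta family ligands, and SOX17 and SOX18 are SOXF transcription factors of endothelium. SOX17 is known in mice as a factor that fetal and neonatal HSCs need and adult HSCs do not.

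Promoter sequences were at hand for 5 of the 10 genes (Eng, Emcn, Tie1, Kdr and Flt1), as 300 bases around a transcript start from RefSeq on GRCm38.p6. The VEGF receptor genes Flt1 and Kdr are shown because their exon reads differ in how they divide between the ages, and Eng because it had the highest level per kb at both ages. Capitals mark AGGAAG or its reverse complement CTTCCT, a form of the site bound by ETS factors, a transcription factor family used by many endothelial genes. The windows are chr5:147725962-147726261 for Flt1 and chr5:75978406-75978705 for Kdr, both on the minus strand and inside the annotated gene, and chr2:32646345-32646644 on the plus strand for Eng.
Flt1: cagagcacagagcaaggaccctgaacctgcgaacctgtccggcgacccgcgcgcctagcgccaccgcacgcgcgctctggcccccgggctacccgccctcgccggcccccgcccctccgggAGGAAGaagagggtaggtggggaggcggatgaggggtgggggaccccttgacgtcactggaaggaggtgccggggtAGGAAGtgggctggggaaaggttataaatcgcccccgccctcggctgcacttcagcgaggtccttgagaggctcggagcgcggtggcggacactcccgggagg
Kdr: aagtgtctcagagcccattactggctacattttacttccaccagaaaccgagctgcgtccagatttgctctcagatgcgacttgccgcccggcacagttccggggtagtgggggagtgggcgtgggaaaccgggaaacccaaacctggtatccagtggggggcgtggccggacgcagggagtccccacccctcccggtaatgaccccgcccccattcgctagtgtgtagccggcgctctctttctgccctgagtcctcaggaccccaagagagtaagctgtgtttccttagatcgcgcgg
Eng: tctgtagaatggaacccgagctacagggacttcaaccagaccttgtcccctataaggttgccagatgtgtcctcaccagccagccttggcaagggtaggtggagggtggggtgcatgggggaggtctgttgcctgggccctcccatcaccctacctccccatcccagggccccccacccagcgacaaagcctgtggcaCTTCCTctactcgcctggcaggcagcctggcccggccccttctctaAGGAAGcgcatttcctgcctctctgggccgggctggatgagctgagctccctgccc
There were 2 such matches each in the Flt1, Eng, Tie1 and Emcn windows and 0 in the Kdr window, and 35.4% of all 32851 RefSeq windows of this length held at least 1. A SOX-type motif, AACAAT, had 1 match in the Emcn window and 0 in the other 4, against 10.7% of all windows with a match. The GATA-type motif AGATAA and the E-box CAGCTG had 0 matches in all 5 windows, against 11.2% and 16.3% of all windows. Both strands were searched for each motif, and a match or its absence is a description of these letters alone.

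Exon read totals ran from 6142760 to 7470777 in P5 libraries and from 5775130 to 7212446 in 4-week libraries. Reads of Y-linked genes were 2, 2293, 0 and 2062 in P5 replicates 1 to 4, against 1532 to 2214 in 4-week libraries. If each library came from a single animal, P5 replicates 1 and 3 shared none with P5 replicates 2 and 4. P5 replicate 1 had the lowest share of intron reads, 60.1%, against 66.8% to 68.2% in the other P5 libraries and 66.9% to 68.7% in 4-week libraries. P5 replicate 2 stood apart by the macrophage gene Csf1r, with 1017 exon reads against 25 to 49 in the other P5 libraries and 20 to 26 at 4 weeks. The library of 4-week replicate 4 stood apart by the stromal chemokine gene Cxcl12, with 364 reads against 2 to 5 in the other 4-week libraries and 0 or 1 at P5. The gate genes were not called, with a log2 fold change (P5 over 4 weeks) of -0.06 for Procr, which encodes EPCR, and -0.12 for Slamf1, which encodes CD150 (adjusted p 0.825 and 0.618 in edgeR). Levels below are exon CPM, reads scaled to a common library size by TMM, unless another read class is named, as mean ± SD with n = 4 libraries for each age. Adjusted p-values are from edgeR's quasi-likelihood test with Benjamini-Hochberg adjustment over all genes tested, and a gene was called where its adjusted p was under 0.05.

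The 10 genes divided by level into groups. Eng, Tie1 and Emcn were abundant at both ages and none was called. Cdh5, Ptprb and Sox18 were higher at P5, Kdr was low at both ages, Flt1 and Plvap were near the limit of counting, and Sox17 had no read. By exon reads 3 of the 7 genes that passed the filter on low counts were called higher at P5 and 0 lower, where 7.99% of all 12235 genes tested were called higher and 8.55% lower (16.5% in all). The median log2 fold change of the 7 was 0.20, against -0.0042 over all genes tested. Cdh5 passed that filter through the P5 libraries alone, so these counts describe the genes and support nothing further. The plot of exon CPM by library shows each gene on its own scale.

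**Figure D1:**
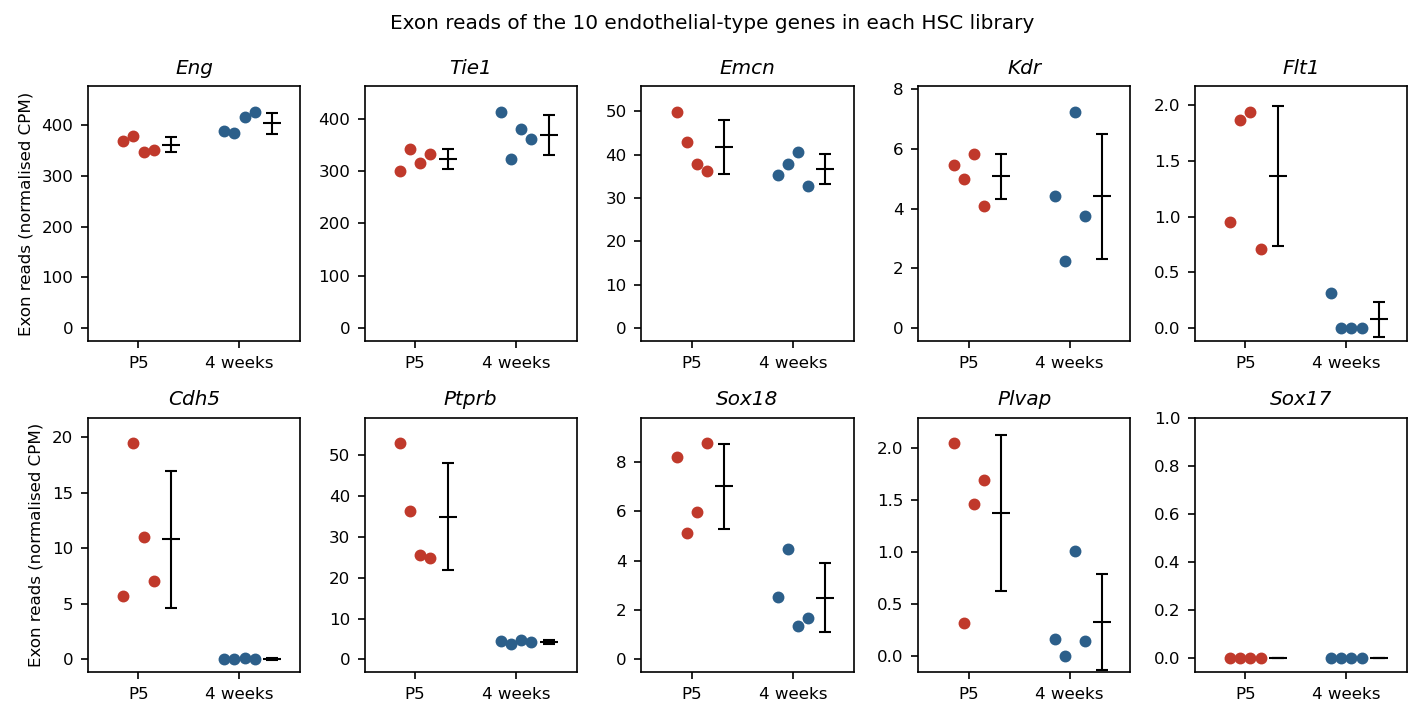
Normalised exon reads (CPM, vertical axes starting at or just below 0, scaled per gene) of the 10 genes in the 4 P5 libraries (red, left) and the 4 libraries at 4 weeks (blue, right). Bars give mean ± SD. Cdh5, Ptprb, Sox18 and Flt1 lay higher in all P5 libraries than in any 4-week library, Eng lay lower in all of them, and Sox17 was at 0 throughout.

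Cdh5 (chr8:104101613-104144504, plus strand) encodes VE-cadherin, the adhesion molecule that defines endothelial adherens junctions. It had 42, 125, 68 and 50 exon reads in P5 replicates 1 to 4, against 0, 0, 1 and 0 at 4 weeks. The ages did not overlap, and 1 read in 1 library was all that the 4-week HSCs gave. The mean level was 10.8 ± 6.17 CPM at P5 and 0.0421 ± 0.0841 CPM at 4 weeks. Summed over libraries, 285 reads stood against 1, a rate ratio of 266.5 with a 95% counting interval of 47.4 to 10563 that covers counting error only. The gene was called (adjusted p 1.71e-05, higher in 4 of 4 P5 libraries). Its fitted log2 fold change of 7.52 (SE 0.755) depends on the prior count, because the 4-week libraries hold almost no reads. Without 4-week replicate 3, which held the single read, the fitted value was 9.16, and with exon and intron reads added together it was 4.50, both still called. P5 replicate 2, the library with the Csf1r reads, was also the highest in Cdh5. Without it the fitted value was 7.08 (adjusted p 1.88e-05), and without both it and 4-week replicate 4 it was 6.73 (adjusted p 0.000116). Over the 6 libraries with Y-linked reads it was 7.81 (adjusted p 0.000176).

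Spliced Cdh5 reads divided in the same way. Reads across exon junctions numbered 10, 34, 23 and 13 at P5 and 0 in every 4-week library. With the 4-week group held at a floor of 3 reads over its libraries, the junction level was at least 25.1-fold higher at P5. Cdh5 junction reads did not pass the filter on low counts and were not tested. Junction reads are a subset of the exon reads and so no separate measurement. Intron reads of Cdh5 numbered 15, 31, 41 and 21 at P5 and 10, 2, 1 and 3 at 4 weeks. They were called higher at P5, having passed the filter through the P5 libraries alone, with a log2 fold change of 2.79 (SE 0.588 and adjusted p 0.00714), where 9.01% of 13180 genes tested by intron reads were called higher and 8.86% lower (17.9% in all). Of all Cdh5 exon and intron reads, 27.5% were intronic at P5 and 94.1% at 4 weeks. The exon difference exceeded the intron difference by 4.79 on the log2 scale (SE 1.09, adjusted p 0.013 in edgeR's quasi-likelihood test of the age by read-class term), where 3.32% of 11399 genes were called that way and 3.06% the other way (6.38% in all). That call rested on 4-week replicate 1, which held 10 of the 16 intron reads at that age: without it the difference was 3.59 with an adjusted p of 0.153. An antisense gene model, Gm29682, overlaps 4249 bases of Cdh5 in GENCODE. The library kit does not mark strand, so its reads could not be told apart from Cdh5 reads, and 78.2% of the Cdh5 intron reads were uniquely mapped, against 86.1% over all genes.

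Ptprb (chr10:116275502-116389538, plus strand) encodes VE-PTP, the receptor phosphatase that acts on TEK and VE-cadherin. It had 388, 234, 159 and 177 exon reads at P5, against 28, 22, 29 and 31 at 4 weeks. The lowest P5 library was far above the highest 4-week library, and the 4-week libraries were close together. The level was 35.0 ± 13.0 CPM at P5 and 4.35 ± 0.448 CPM at 4 weeks, a log2 fold change of 3.00 (SE 0.257 and adjusted p 5.22e-06). Intron reads numbered 358, 187, 129 and 122 at P5 and 24, 32, 35 and 50 at 4 weeks, with a log2 fold change of 2.66 (SE 0.432 and adjusted p 0.00158). Junction reads numbered 86, 48, 20 and 44 at P5 and 4, 5, 5 and 4 at 4 weeks, with a log2 fold change of 3.31 (SE 0.401 and adjusted p 4.03e-06), where 4.35% of 9191 genes tested by junction reads were called higher and 5.03% lower (9.38% in all). Its junction reads passed the filter through the P5 libraries alone. P5 replicate 1 was the highest library for Ptprb in each read class. Without P5 replicate 1 the exon log2 fold change was 2.73 (adjusted p 4.98e-06), and over the 6 libraries with Y-linked reads it was 2.81 (adjusted p 5.16e-05). The exon and intron differences of Ptprb were not called unequal (0.47 on the log2 scale, adjusted p 0.391 in edgeR's test of the age by read-class term).

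Sox18 (chr2:181669837-181671640, minus strand) encodes a SOXF factor of early vessel and lymphatic development. It had 60, 33, 37 and 62 exon reads at P5, against 16, 26, 8 and 12 at 4 weeks. It passed the filter on low counts through the P5 libraries, not through the 4-week libraries. The ages did not overlap, though the lowest P5 library, at 5.13 CPM, was near the highest 4-week library, at 4.48 CPM. The level was 7.01 ± 1.73 CPM at P5 and 2.50 ± 1.41 CPM at 4 weeks, a log2 fold change of 1.49 (SE 0.391 and adjusted p 0.0184). This call was lost, with the direction kept, without P5 replicate 4 (1.37, adjusted p 0.0608), without 4-week replicate 3 (1.29, adjusted p 0.0508) or without 4-week replicate 4 (1.34, adjusted p 0.0586). It was lost as well with Y-linked reads as a covariate (1.48, adjusted p 0.0696). The gene spans 1804 bases with 2 exons, and it had 1 intron read in all. Junction reads numbered 4, 9, 4 and 1 at P5 and 6, 1, 0 and 1 at 4 weeks, and overlapped.

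Sox17 (chr1:4490928-4497426, minus strand) had 0 exon, intron and junction reads in every library of both ages. With 3 reads as the limit that a count of 0 allows, its pooled level could have been up to 0.111 CPM at P5 and 0.119 CPM at 4 weeks. Transcripts below that were not detectable at this depth. The third SOXF gene, Sox7, had 7, 11, 8 and 0 reads at P5 and 0 in each 4-week library, and did not pass the filter. Sox18 was thus the SOXF gene with the most reads at both ages.

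The VEGF receptors were scarce. Kdr (chr5:75932827-75979072, minus strand) encodes VEGFR2, the main signalling receptor for VEGF in endothelium. It had 40, 32, 36 and 29 exon reads at P5, against 28, 13, 43 and 27 at 4 weeks. The 4-week libraries included both the lowest and the highest value, so the ages overlapped throughout. The level was 5.08 ± 0.748 CPM at P5 and 4.41 ± 2.09 CPM at 4 weeks, with a log2 fold change of 0.20 and a 95% interval, from the SE, of -0.50 to 0.91 (adjusted p 0.752). Its intron reads, 21, 53, 24 and 42 at P5 and 18, 2, 26 and 6 at 4 weeks, gave a log2 fold change of 1.44 (SE 0.612 and adjusted p 0.127), which was not called. Without 4-week replicate 3 that intron value was 2.11 (adjusted p 0.0499). Of the Kdr intron reads 81.8% were uniquely mapped, and on those alone the value was 1.01 (adjusted p 0.264).

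Flt1 (chr5:147561604-147726438, minus strand) encodes VEGFR1, which binds VEGF tightly and in endothelium acts largely as a decoy. It had 7, 12, 12 and 5 exon reads at P5, against 2, 0, 0 and 0 at 4 weeks. The ages did not overlap, but the gene did not pass the filter. Pooled, 36 reads stood against 2, a rate ratio of 16.8 with a 95% counting interval of 4.33 to 144. Tested without the filter, it was called higher at P5 (adjusted p 0.0227). Junction reads numbered 1, 4, 8 and 1 at P5 and 0 in every 4-week library. Against a floor of 3 reads over the 4-week group this was 4.39-fold higher, and the 95% counting interval began at 3.12. Intron reads were more numerous than exon reads and overlapped between the ages, at 52, 84, 35 and 16 in P5 libraries and 22, 29, 43 and 25 in 4-week libraries (log2 fold change 0.73, adjusted p 0.333). Intron reads made up 83.9% of Flt1 reads at P5 and 98.3% at 4 weeks.

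**Figure D2:**
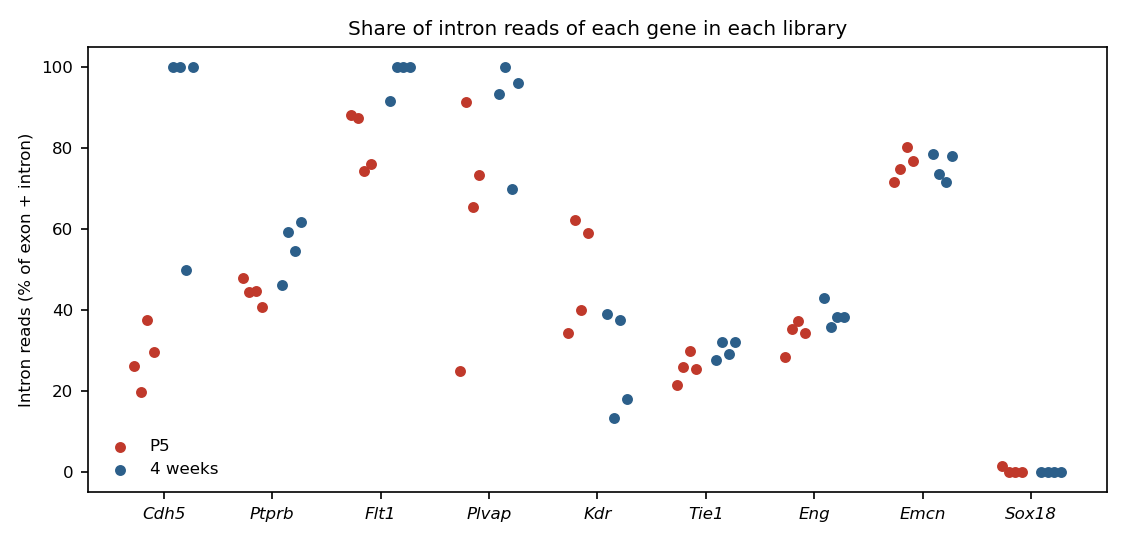
Intron reads as a percentage of exon plus intron reads (vertical axis) for each gene with reads, in each P5 library (red, left of each pair) and each 4-week library (blue, right). Cdh5 was mainly exonic in every P5 library and at 50% to 100% intronic in the 4-week libraries, where it had 1 to 10 intron reads each. Pooled over libraries, the share was 25.7% at P5 and 30.3% at 4 weeks for Tie1, and 33.8% at P5 and 39.0% at 4 weeks for Eng.

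Plvap (chr8:71497753-71511806, minus strand) encodes the diaphragm protein of fenestrated and sinusoidal endothelium. It had 15, 2, 9 and 12 exon reads at P5, against 1, 0, 6 and 1 at 4 weeks. P5 replicate 2 lay below 4-week replicate 3, so the ages overlapped. Pooled, 38 reads stood against 8, a rate ratio of 4.44 with a 95% counting interval of 2.04 to 11.0. It did not pass the filter, and without the filter it was not called (adjusted p 0.181). Junction reads numbered 5, 1, 6 and 4 at P5 and 0 in every 4-week library. Against the same floor this was 5.02-fold higher, and the 95% counting interval began at 3.63. Intron reads numbered 5, 21, 17 and 33 at P5 and 14, 9, 14 and 24 at 4 weeks, overlapped, and were not called (log2 fold change 0.36, adjusted p 0.634). Gtpbp3, a gene on the opposite strand, overlaps 1819 bases of Plvap, and its reads there could not be told apart.

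Eng (chr2:32646595-32682669, plus strand) was the most abundant of the 10 per kb of exon. It had 2705, 2442, 2147 and 2491 exon reads at P5, against 2456, 2237, 2474 and 3079 at 4 weeks. After scaling, its level was 362 ± 15.2 CPM at P5 and 404 ± 20.4 CPM at 4 weeks, and every P5 library lay below every 4-week library. The log2 fold change of -0.16 (SE 0.0696) was not called at an adjusted p of 0.140, with an unadjusted p of 0.0382 in the same edgeR fit. Of the 7 genes tested, 4 did not overlap between the ages, of which 3 lay higher at P5 and 1 (Eng) lower, where 10% of all genes tested lay wholly higher and 11.2% wholly lower at P5 (21.2% in all). Intron reads gave -0.31 (adjusted p 0.0616) and junction reads -0.24 (adjusted p 0.0925), and neither was called.

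Tie1 (chr4:118471191-118489849, minus strand), the orphan partner of TEK, had 2204, 2205, 1950 and 2361 exon reads at P5, against 2615, 1870, 2257 and 2607 at 4 weeks. The ages overlapped. Its level was 323 ± 18.8 CPM at P5 and 369 ± 37.9 CPM at 4 weeks, with a log2 fold change of -0.19 (SE 0.0846 and adjusted p 0.143). Its intron reads, 602, 777, 830 and 805 at P5 and 1008, 885, 935 and 1242 at 4 weeks, were called lower at P5 with a log2 fold change of -0.36 (SE 0.0991 and adjusted p 0.0272), where 8.86% of genes tested by intron reads were called lower. That call was lost without P5 replicate 4, 4-week replicate 1, 4-week replicate 3 or 4-week replicate 4, with values from -0.38 to -0.33 and adjusted p from 0.0558 to 0.0803. It was lost as well with Y-linked reads as a covariate (-0.38, adjusted p 0.0796). Emcn (chr3:137341062-137431069, plus strand), which encodes the sialomucin endomucin, had 366, 277, 235 and 257 exon reads at P5, against 224, 220, 242 and 237 at 4 weeks. Its level was 41.8 ± 6.13 CPM at P5 and 36.7 ± 3.38 CPM at 4 weeks, with overlap and a log2 fold change of 0.19 (SE 0.130 and adjusted p 0.364). About 75.8% of Emcn reads were intronic at each age, and the intron difference of 0.40 (adjusted p 0.0632) was not called.

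**Figure D3:**
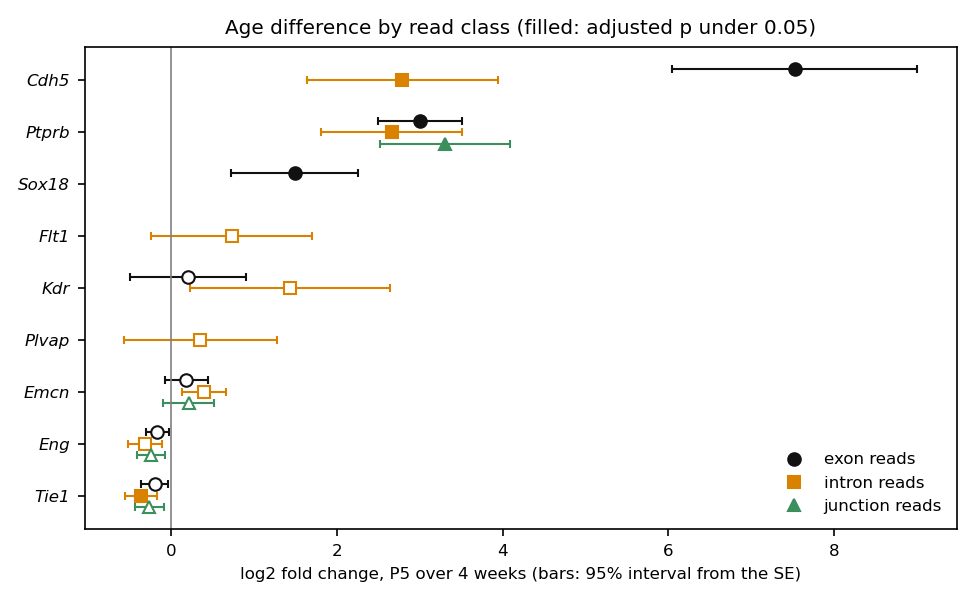
Log2 fold change, P5 over 4 weeks (horizontal axis), of 9 genes by exon reads (circles), intron reads (squares) and junction reads (triangles), with bars of the 95% interval from the SE and filled symbols where the adjusted p was under 0.05. Read classes that did not pass the filter on low counts are not drawn. Ptprb lay near 3 in every class, while Cdh5 lay at 7.52 by exon and 2.79 by intron reads.

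Per kb of exon, the order at P5 was Eng (97.6 ± 4.11 CPM per kb), Tie1 (83.2 ± 4.84), Emcn (28.3 ± 4.15), Sox18 (4.33 ± 1.07), Ptprb (2.71 ± 1.01), Cdh5 (2.67 ± 1.53), Kdr (0.860 ± 0.126), Plvap (0.648 ± 0.353), Flt1 (0.181 ± 0.0832) and Sox17 at 0. The libraries of Sox18, Ptprb and Cdh5 overlapped between neighbours in that order, as did those of Kdr, Plvap and Flt1. At 4 weeks Eng (109 ± 5.51 CPM per kb), Tie1 (95.1 ± 9.78) and Emcn (24.8 ± 2.29) stood in the same places, and Sox18 (1.55 ± 0.870) was again the fourth. Below it came Kdr (0.746 ± 0.354), Ptprb (0.337 ± 0.0347), Plvap (0.154 ± 0.217), Flt1 (0.0105 ± 0.0209) and Cdh5 (0.0104 ± 0.0208). Cdh5 thus stood at rank 6 at P5 and rank 9 at 4 weeks.

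The authors' deposited table holds their own test of the ages, whose signed folds run 4 weeks over P5, so a negative fold means higher at P5. In the authors' deposited table, the folds were -184 for Cdh5 (corrected p 9.32e-22), -8.03 for Ptprb (2.39e-23), -13.9 for Flt1 (4.97e-05) and -2.82 for Sox18 (0.000824). Flt1 was thus under 0.05 in the authors' deposited table while it missed the filter used here. The other 6 genes, Plvap included (fold -4.15, corrected p 0.12), were not under 0.05 in the authors' deposited table.

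Genes whose profile over the 8 libraries was closest to each tested gene were found by the root mean square difference of log2(CPM + 0.5) centred on each gene's mean. For Ptprb they were Gem (difference 0.216), a small GTP-binding protein, and Slit2 (0.224), a guidance ligand for ROBO receptors. Gem averaged 130.6 CPM at P5 and 19.0 CPM at 4 weeks, and Slit2 43.3 CPM at P5 and 5.23 CPM at 4 weeks. For Cdh5 they were S100a16 (0.654) and Dlk1 (0.667), an imprinted gene of fetal tissues, which averaged 38.5 CPM at P5 and 1.81 CPM at 4 weeks. These differences were larger than those of the nearest genes of the other 6 tested genes. Sox18 was nearest to Nr4a3 (0.211) and S100a6 (0.289), and Kdr to Ppapdc3 (0.141) and Cyp39a1 (0.172). Eng was nearest to Atp2a3 (0.0334) and Abhd17b (0.0429), Tie1 to Lrig2 (0.0451) and Sbno1 (0.0483), and Emcn to Tmem9 (0.0567) and Mrpl43 (0.0606).

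Partners and pathways of the 10 genes were described through lists, each beside the 7.99% of genes called higher and 8.55% called lower among all genes tested. Their median log2 fold changes, P5 over 4 weeks, were 0.28 for VEGF ligands and receptors, 0.20 for the angiopoietin pathway, 0.30 around endoglin, 0.17 for junction partners of VE-cadherin, 0.27 for transcription factors, 0.31 for shared surface genes and 0.48 for vessel-restricted markers, against -0.0042 over all genes tested. With Y-linked reads as a covariate, the counts called higher were 1, 2, 2, 3, 5, 5 and 3 in these lists, and each list's lower count was at most 1. Over all genes, that fit called 628 higher and 608 lower, against 977 and 1046 in the main fit. The fit without P5 replicate 2 and 4-week replicate 4, whose list counts are given below, called 598 higher and 811 lower. Fewer calls in a list thus go with fewer calls over all genes. Of 8 VEGF ligands and other receptors, 5 passed the filter and 1 was called. Vegfa, the principal VEGF ligand, was higher at P5 at 76.4 ± 6.78 CPM, against 46.9 ± 7.21 CPM at 4 weeks (log2 fold change 0.70, SE 0.119, adjusted p 0.00122). Vegfb was not called (-0.36, adjusted p 0.284). Nrp1, a VEGF co-receptor, had 27 reads in P5 replicate 2 and at most 6 in any other library.

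In the angiopoietin and TIE pathway, 3 genes of 6 that passed the filter were called higher at P5 and 2 lower, with 1 lower without P5 replicate 2 and 4-week replicate 4. Tek, the angiopoietin receptor, averaged 151 ± 12.7 CPM at P5 and 96.3 ± 10.9 CPM at 4 weeks (0.65, SE 0.0963, adjusted p 0.000474), and its intron reads were called as well (0.84, adjusted p 0.000389). Dok2, an adaptor bound by active TEK, averaged 86.0 ± 8.29 CPM at P5 and 40.3 ± 4.96 CPM at 4 weeks (1.09, adjusted p 2.54e-05). Svep1, the gene of an extracellular protein that binds TIE1, was higher at 21.9 ± 9.23 CPM at P5, against 9.62 ± 3.17 CPM at 4 weeks (1.19, adjusted p 0.0123). Angpt1, the ligand that activates TEK, was lower at 278 ± 25.6 CPM at P5, against 395 ± 40.2 CPM at 4 weeks (-0.51, adjusted p 0.00198). Ptpn11, the gene of the phosphatase SHP2, was lower at 146 ± 4.08 CPM at P5, against 173 ± 7.36 CPM at 4 weeks (-0.25, adjusted p 0.0272). The antagonist gene Angpt2 had 1 read at each age.

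Around endoglin, 6 genes of 13 that passed the filter were called higher at P5 and 0 lower, with 3 higher without P5 replicate 2 and 4-week replicate 4. Tgfbr2, the TGF-beta type II receptor, averaged 168 ± 12.2 CPM at P5 and 104 ± 10.2 CPM at 4 weeks (0.69, SE 0.0899, adjusted p 0.000156). Smad7, an inhibitor of the pathway and itself a target of it, averaged 110 ± 41.4 CPM at P5 and 41.4 ± 8.48 CPM at 4 weeks (1.41, adjusted p 0.000629), with its highest value in P5 replicate 2. Id1, a BMP target, averaged 8.04 ± 3.99 CPM at P5 and 3.12 ± 0.710 CPM at 4 weeks (1.38, adjusted p 0.0269), with overlap. Tgfb1, a ligand gene, was higher at 118 ± 7.17 CPM at P5, against 95.4 ± 4.70 CPM at 4 weeks (0.30, adjusted p 0.0201). The type II receptor genes Bmpr2 (0.23, adjusted p 0.0482) and Acvr2b (0.50, adjusted p 0.0392) were called higher close to the threshold. Acvrl1, the gene of the endothelial receptor ALK1 that pairs with endoglin, was not called (1.31, adjusted p 0.0809), and the circulating ligand gene Gdf2 (BMP9) had no read.

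Of 15 junction partners of VE-cadherin, 14 passed the filter, and Radil had 0 reads at P5 and 3 in 1 library at 4 weeks. Of the 14 tested, 5 were higher and 1 lower at P5, with 3 higher and 0 lower without P5 replicate 2 and 4-week replicate 4. Ctnnb1, which encodes beta-catenin, averaged 587 ± 55.2 CPM at P5 and 534 ± 27.0 CPM at 4 weeks and was not called (0.14, adjusted p 0.278). Jup, the gene of plakoglobin, was higher at 73.8 ± 13.4 CPM at P5, against 41.4 ± 5.64 CPM at 4 weeks (0.84, adjusted p 0.00122). Ctnnal1, an alpha-catenin relative, was higher at 169 ± 25.4 CPM at P5, against 77.4 ± 6.42 CPM at 4 weeks (1.13, adjusted p 1.19e-05). Rasip1, a RAP1 effector of endothelium, was higher by 1.11 (adjusted p 0.0247), with overlap between the ages. Vcl, which encodes the actin linker vinculin, was higher as well (0.47, adjusted p 0.00457). Heg1, a receptor that binds the KRIT1 complex, was lower at 251 ± 18.1 CPM at P5, against 302 ± 11.2 CPM at 4 weeks (-0.27, adjusted p 0.0246).

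Among endothelial transcription factors other than Sox17 and Sox18, 16 of 25 were tested, of which 7 were higher and 2 lower at P5. There were 4 higher and 1 lower without P5 replicate 2 and 4-week replicate 4. Prox1, 1 of the 7 higher, passed the filter on low counts through the P5 libraries, not through the 4-week libraries. It had 25, 38, 27 and 25 reads at P5, against 2, 0, 13 and 0 at 4 weeks. Ets1 averaged 68.4 ± 7.66 CPM at P5 and 41.3 ± 2.76 CPM at 4 weeks (0.73, adjusted p 0.000572). Hhex averaged 104 ± 5.12 CPM at P5 and 68.8 ± 5.86 CPM at 4 weeks (0.59, adjusted p 0.000581). The flow-responsive Klf2 averaged 33.7 ± 21.6 CPM at P5 and 9.76 ± 0.966 CPM at 4 weeks (1.79, adjusted p 0.00359). Its P5 levels ran from 14.4 to 64.7 CPM, with the highest in P5 replicate 2. Lmo2, shared by blood and endothelial programmes, was lower at 655 ± 56.4 CPM at P5, against 947 ± 45.7 CPM at 4 weeks (-0.53, adjusted p 0.000475). The ETS-family gene Elk3 was higher (0.45, adjusted p 0.00525), and the ETS-family gene Fli1 was lower (-0.32, adjusted p 0.0145). Etv2, which starts the endothelial programme in the embryo, had 1 read in all.

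Surface genes shared by HSCs and endothelium included 7 called higher and 1 lower at P5 of 21 tested, and without P5 replicate 2 and 4-week replicate 4 these were 7 and 2. Egfl7, a secreted vessel factor, averaged 272 ± 26.5 CPM at P5 and 90.8 ± 4.39 CPM at 4 weeks (1.58, SE 0.0857, adjusted p 1.11e-07). Calcrl, the gene of a component of the adrenomedullin receptor, averaged 402 ± 30.7 CPM at P5 and 207 ± 21.9 CPM at 4 weeks (0.96, adjusted p 1.03e-05). S1pr1, a sphingosine phosphate receptor gene, averaged 61.3 ± 13.6 CPM at P5 and 30.3 ± 4.38 CPM at 4 weeks (1.01, adjusted p 0.000767). Cd93, a C-type lectin gene, was higher at 487 ± 23.7 CPM at P5, against 385 ± 26.0 CPM at 4 weeks (0.34, adjusted p 0.0065). Podxl, which encodes podocalyxin, was lower at 19.7 ± 4.91 CPM at P5, against 52.5 ± 19.0 CPM at 4 weeks (-1.41, adjusted p 0.00135).

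**Figure D4:**
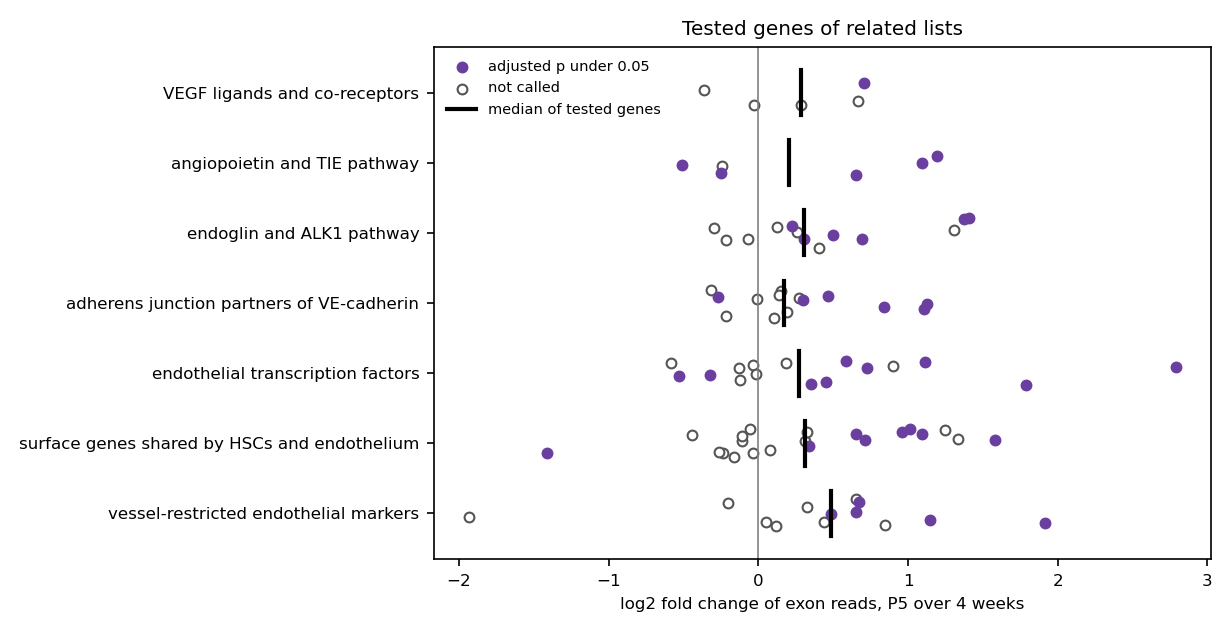
Log2 fold change of exon reads, P5 over 4 weeks (horizontal axis), of each tested gene in 7 lists related to the 10 genes. Filled points had an adjusted p under 0.05 and black lines are medians of the genes tested, from 0.17 to 0.48. Each list held called genes to the right of 0, and 4 of the 7 held called genes on the left.

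Markers more restricted to vessels were detected in part. The list shares Tek and Pecam1 with that of shared surface genes, and Tek, which is in the angiopoietin list too, is among its called genes. Of 26, 13 passed the filter, with 5 called higher and 0 lower at P5, and 3 higher without P5 replicate 2 and 4-week replicate 4. The 2 genes Gpihbp1 and Ackr1 had no read, and Esm1, Fabp4 and Sele had 1 read each in all. Lyve1, a sinusoidal and lymphatic marker, had 5 reads at P5 and 0 at 4 weeks. Cldn5, the endothelial claudin, had 74, 52, 14 and 17 reads at P5, against 12, 8, 8 and 10 at 4 weeks (1.92, SE 0.523, adjusted p 0.023). It passed the filter on low counts through the P5 libraries, not through the 4-week libraries. Ecscr averaged 26.3 ± 3.94 CPM at P5 and 11.9 ± 2.72 CPM at 4 weeks (1.15, adjusted p 0.000957). Cyyr1 was higher with overlap (0.67, adjusted p 0.0435). The summed level of the list was 1126 to 1283 CPM at P5 and 798 to 929 CPM at 4 weeks. Eltd1, an adhesion receptor gene that averaged 773 ± 80.7 CPM at P5 and 553 ± 36.4 CPM at 4 weeks (0.48, adjusted p 0.00187), made up most of that sum. The share of endothelial cells in the higher P5 levels of Cdh5, Ptprb and Sox18 was not tested.

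Markers of other marrow cells moved in both directions, where 7.99% of all genes tested were called higher and 8.55% lower. Macrophage markers summed to 29.8 to 278 CPM at P5 and 33.3 to 65.7 CPM at 4 weeks, with 2 of 7 tested higher and 1 lower at P5, and Marco had no read. Csf1r (3.57, adjusted p 0.0366) and Cd68 (1.08, adjusted p 0.00141) were higher, Cd163 (-2.44, adjusted p 6.23e-05) was lower, and 1 was higher without P5 replicate 2 and 4-week replicate 4. Erythroid markers summed to 643 to 997 CPM at P5 and 172 to 206 CPM at 4 weeks. Most of that at P5 was Hbb-bt, an adult beta-globin gene, at 710 ± 151 CPM at P5 and 96.8 ± 21.0 CPM at 4 weeks (2.87, adjusted p 1.29e-07). It was the 1 erythroid marker of 4 tested that was called, Epor was not (0.62, adjusted p 0.066), and Alas2 had no read. Stromal markers summed to 15.2 to 35.7 CPM at P5 and 13.6 to 91.3 CPM at 4 weeks, with 0 of 4 tested higher, and Rgs5 and Dcn had no read at P5. Pdgfrb was lower (-1.71, adjusted p 0.000797) and Col1a2 was not called (0.87, adjusted p 0.192). Of 9 megakaryocyte and platelet markers tested, 1 was called higher and 2 lower at P5. Gp9 was higher (1.32, adjusted p 0.00153), while Itga2b (-0.92, adjusted p 0.00204) and Itgb3 (-2.98, adjusted p 1.68e-06) were lower. Median log2 fold changes of the genes tested were 0.99 for macrophage, 0.54 for erythroid, 0.23 for stromal and -0.20 for megakaryocyte markers, against -0.0042 over all genes tested. The macrophage median was the value of Emr1, which had 0, 102, 16 and 0 reads in P5 replicates 1 to 4, and the summed macrophage levels of those libraries were 40.1, 278, 56.1 and 29.8 CPM. The part of these cells in the results was not tested.

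Among HSC identity genes 3 of 13 tested were higher and 2 lower at P5, with a median log2 fold change of -0.05. Over all genes tested, 7.99% were called higher and 8.55% lower, with a median of -0.0042. Of the HSC identity genes, 1 was higher without P5 replicate 2 and 4-week replicate 4. Fgd5, expressed by HSCs and endothelium, was higher at 433 ± 22.6 CPM at P5, against 285 ± 15.4 CPM at 4 weeks (0.60, adjusted p 7.74e-05). Mecom (0.35, adjusted p 0.0106), counted among the transcription factors too, and Flt3 (0.64, adjusted p 0.0408) were higher too. Ly6a, which encodes SCA1, was lower at 29.6 ± 4.00 CPM at P5, against 85.9 ± 17.8 CPM at 4 weeks (-1.53, adjusted p 1.49e-05), and Gfi1b was lower (-1.33, adjusted p 8.94e-05). Hlf, the most abundant of them, was not called (0.17, adjusted p 0.211).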

How the data were processed

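Messenger RNA was profiled in 8 HSC libraries by sequencing on a NextSeq instrument after Nextera XT preparation, which does not mark strand, per the labels' protocols. The files deposited by the authors give raw counts of reads over exons, introns and exon junctions for each gene. Per the submitters' processing notes the genome was mm10. Which aligner, counter and annotation were used is not given in the sources used here. In addition, the file of P5 replicate 1 holds the authors' own test, with its p-value, corrected p-value and a signed fold score, all deposited by the authors. Positions come from RefSeq on GRCm38.p6 and overlaps from GENCODE.

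Genes were tested on total exon reads with edgeR 4.0.16 in R 4.3.3 (TMM, filterByExpr, quasi-likelihood, age alone), and likewise on intron and junction reads. The 12235 genes kept held 99.8% of exon reads. Copies of 969 genes under numbered names were summed first. In 1 file, 24 gene names that had become dates were restored from the row order. The age by read-class term was tested in 1 model with each library as a block. Standard errors, computed from the F statistic, are approximate. Common dispersion corresponded to a biological coefficient of variation of 0.152. Reads carry no molecular identifiers, so intervals (exact binomial for pooled rates) and floors of 3 reads cover counting error only. The fits were first tested on simulated data. At a log2 change of 1 they recovered 99% (exon), 80% (intron) and 89% (junction) of the changed genes. These were drawn from genes with an average log2 CPM above 3, and 1 common dispersion was used for all genes. By exon reads Cdh5, Sox18, Kdr, Flt1 and Plvap lay below that level, so these rates do not cover them. The test of unequal exon and intron differences recovered 24% at a log2 difference of 1 and 97% at 2. A difference of the size seen in Ptprb would thus often be missed. Libraries of an age differed beyond counting noise, with a chi-square per degree of freedom of 4.38 to 14.4, so none was a repeat deposit. Other tools were limma 3.58.1, DESeq2 1.42.0, and Python with pandas and matplotlib.

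The genes, lists and tests were chosen with earlier results of these data known. Named were all 10 genes, the 2 genes nearest in profile to each, and from each list the 2 with the smallest p-value, the most abundant and up to 5 called. Lists' undetected genes, Nrp1, Sox7, Acvrl1, Angpt2, Etv2, Lyve1, Fli1, Prox1, Radil, Emr1, Cxcl12 and the gate genes were added after their values were seen. One result named by this rule is not reported here.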

Additional observations from a re-analysis of the deposited data

Results flagged for a closer look

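In 5 of 50 sets of 4 libraries of the 10 genes, 1 library lay far from the other 3. The rule flags about 1 in 20 sets of normally distributed values, a rate that does not hold for counts near 0. Where the other 3 libraries have 0 reads, any read in the remaining library is flagged. All 5 rest on few reads. Cdh5 exon reads in 4-week replicate 3 gave 0.168 CPM from 1 read, with 0 in the other 4-week libraries. Flt1 exon reads in 4-week replicate 1 gave 0.316 CPM from 2 reads, with 0 in the others. Plvap exon reads in 4-week replicate 3 gave 1.01 CPM from 6 reads, against 0 to 0.158 CPM in the others. Cdh5 intron reads in 4-week replicate 1 gave 0.719 CPM from 10 reads, against 0.0829 to 0.189 CPM in the others. Sox18 intron reads in P5 replicate 1 gave 0.0944 CPM from 1 read, with 0 in the other P5 libraries.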

How the results depend on the processing

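Over 21 alternatives, Cdh5 and Ptprb stayed called by exon reads in each, with fitted log2 fold changes of 4.50 to 9.16 for Cdh5 and 2.73 to 3.14 for Ptprb, and no result changed direction. Sox18 kept its direction in all 21 and its call in 15. With the replicate number as a block, Sox18 gave 1.56 (adjusted p 0.0539) and the count of genes called by exon reads was 1300, against 2023 without it. Same-numbered libraries did not deviate together (correlations of -0.031, -0.251, -0.100 and -0.052), so no pairing by number was seen. So few correlations cannot show that the numbers carry no pairing. The count of genes called by exon reads was 1236 with Y-linked reads as a covariate and 1257 with only libraries holding such reads, where Sox18 gave 1.48 (adjusted p 0.0984). With that covariate, chosen for these classes after seeing the data, 1281 genes were called by intron reads, against 2356, and 500 by junction reads, against 862. The cause was not tested. Leaving out each library in turn, the counts ran from 1502 to 1974 (exon), 1669 to 2152 (intron), 661 to 887 (junction) and 384 to 672 (unequal exon and intron difference, against 727 in all libraries). Leaving out P5 replicate 2 and 4-week replicate 4 together, also chosen after seeing the data, left 1409 genes called by exon reads. By intron reads, Emcn was called with uniquely mapped reads (0.45, adjusted p 0.0404), at a filter of 5 CPM in 4 libraries (0.42, adjusted p 0.0473) and without P5 replicate 4 (0.48, adjusted p 0.0428), and Eng without 4-week replicate 2 (-0.38, adjusted p 0.0209). With the replicate block, the Tie1 intron call was lost (-0.36, adjusted p 0.0766). Junction reads of Cdh5 were called at the filter of 5 CPM in 4 libraries and in 5 of 8 fits that left out 1 library (P5 replicate 1 or any of the 4-week replicates). With 0 such reads in every 4-week library, Cdh5 passed the filter in these fits through the P5 libraries alone. Without 4-week replicate 2, junction reads of Tie1 were called (-0.31, adjusted p 0.0335). Depth limits Flt1, Plvap and Sox17, which had at most 38 exon reads at either age over all libraries.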
